A study of Mus musculus with 8 samples.

Results

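The matrix metalloproteinases (MMP), the ADAM and ADAMTS proteases, the ADAMTS-like proteins and the tissue inhibitors of metalloproteinases (TIMP) were examined in cultured mouse heart muscle cells. Members were chosen by symbol: every protein-coding mouse gene named Mmp, Adam, Adamts, Adamtsl or Timp followed by a number. This gave 83 of the 49315 genes in the count tables: 22 Mmp, 33 Adam, 19 Adamts, 5 Adamtsl and 4 Timp genes. The 51 that had at least 10 counts in at least 4 of the 8 libraries are described in full: 14 Mmp, 13 Adam, 15 Adamts, 5 Adamtsl and 4 Timp genes. The cells were cardiomyocytes of C57/Bl6 embryos at embryonic day 12.5, with both sexes pooled; the design text describes cells in culture, while the RNA protocol names dissected hearts. One group of 4 libraries came from cells in control medium and the other group of 4 from cells in medium with 10 µM simvastatin, which blocks the enzyme that makes mevalonate. Both groups shared strain, age and tissue, the labels name no transgene, and they do not say whether the replicates were separate cultures, so p-values measure only how far these samples differ, which may be technical spread.

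MMPs, ADAMs and ADAMTSs are zinc-dependent proteases of the metzincin clan. Secreted and membrane-bound MMPs cut collagens and other matrix proteins. ADAMs are mostly membrane-anchored and release the outer parts of growth factors and receptors, and ADAMTSs are secreted and cut proteoglycans such as versican or the ends of procollagens. ADAMTS-like proteins have the ancillary domains of ADAMTSs but no protease domain. TIMPs bind the active site of MMPs and, for some pairs, of ADAMs and ADAMTSs. In the embryonic heart these proteins are known for remodelling the cardiac jelly, the cushions and the valves, and for releasing ligands of the ErbB and Notch pathways.

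Library totals ran from 30474586 to 35215640 counts. The header of each count column names a set, with replicates 1 and 3 of each group in set 1 and replicates 2 and 4 in set 2. The sources used here do not say what these sets were, and values within each set are given for the genes that passed. Each of 6 cardiomyocyte markers was present in every library, with a summed level of 35856 to 46499 CPM (counts scaled by the normalised library size) in controls and 39256 to 46103 CPM with simvastatin. Markers of fibroblasts, endothelium, smooth muscle, epicardium and macrophages were also present. In bulk samples fewer cells of a type and less RNA per cell cannot be told apart.

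Most of the changed genes fell. Of the 51 genes, 12 fell and 4 rose with simvastatin (adjusted p under 0.05 over 16126 genes, by edgeR's quasi-likelihood test with the Benjamini-Hochberg method). Together the 16 made up 31.4% of the 51, against 17.4% of all genes tested. Falls made up 23.5% and rises 7.84%, against 9.61% and 7.79% of all genes. The genes that fell were Mmp2, Mmp3, Mmp8, Mmp12, Mmp23, Adam8, Adam9, Adam12, Adam19, Adamts5, Adamts9 and Adamtsl3, and those that rose were Mmp11, Mmp28, Adamtsl2 and Adamtsl4. At least 2-fold falls were called for 8 genes and a rise of that size for 1, Mmp28, against 4.99% and 2.92% of all genes (7.91% in either direction). Control and simvastatin libraries did not overlap for 14 genes that were lower and 4 that were higher with simvastatin, where all genes tested gave 12.1% and 11.0% (23.1% in either direction). The median log2 fold change of the 51 was -0.36, against 0.01 over all genes tested. Set 1 alone called 14 falls and 3 rises (all genes in that set gave 5.91% and 3.91%, 9.82% together), and set 2 alone called 8 falls and 2 rises (all genes gave 11.5% and 6.79%, 18.3% together). Without simvastatin replicate 3 the count of rises was 2.

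**Figure D1:**
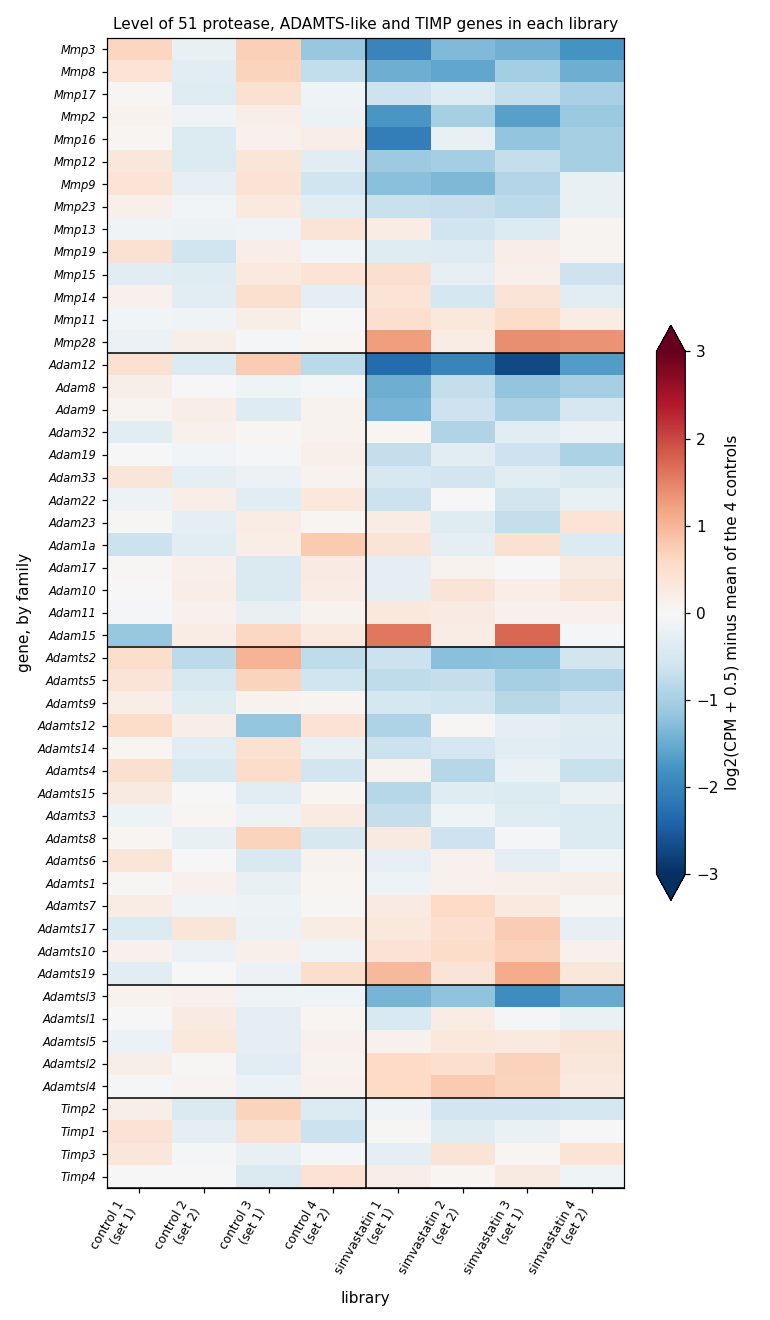
Level of each of the 51 genes (rows, by family and in order of change) in each library (columns), as log2(CPM + 0.5) minus the mean of the 4 controls. Blue at the top of the MMP and ADAM blocks on the simvastatin side marks genes such as Mmp2 and Adam12 that were lower in all 4 simvastatin libraries, and the paler TIMP block at the bottom holds genes whose groups overlapped.

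**Figure D2:**
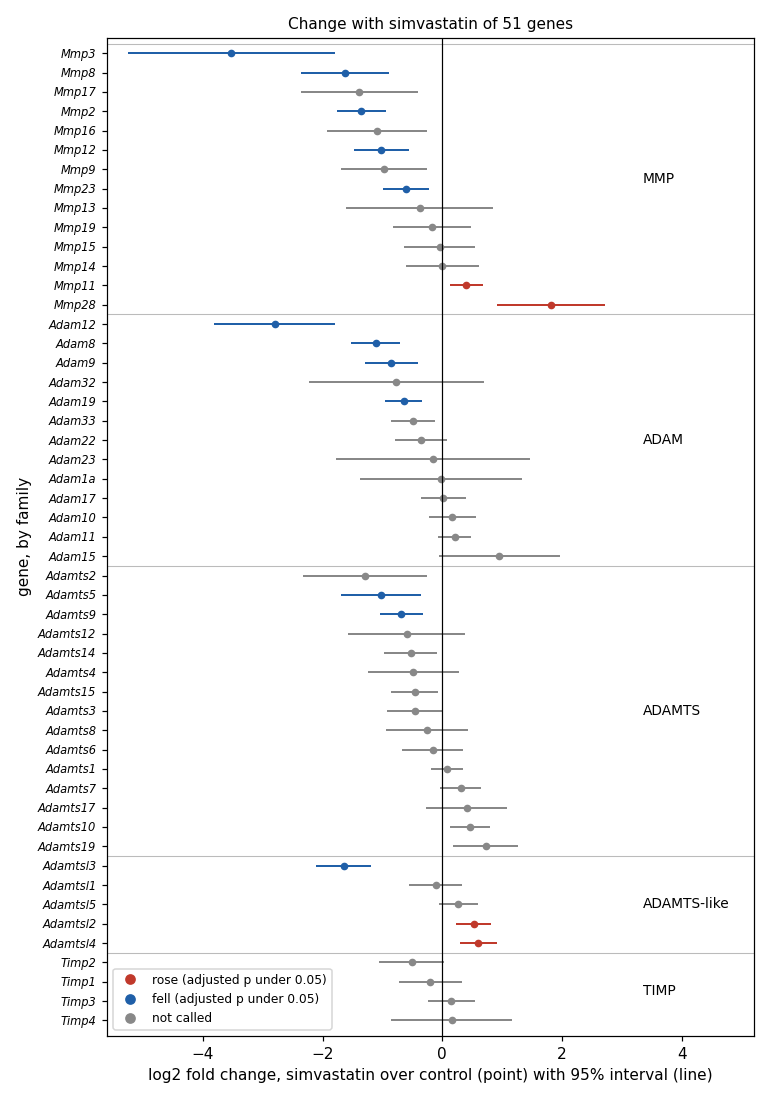
Log2 fold change of each of the 51 genes (point) with its 95% interval (line), by family, with the 12 falls in blue, the 4 rises in red and the 35 genes that did not pass in grey. Values run from the fall of Mmp3 at -3.52 to the rise of Mmp28 at 1.81.

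Levels between genes were compared per length, as TPM (the length-corrected share of a library, from counts and the exon length in the files). In controls the most abundant members were Timp1 at 234 ± 80.9, Adam9 at 165 ± 31.5, Mmp2 at 144 ± 15.3, Adam10 at 126 ± 26.5 and Timp3 at 117 ± 22.9 TPM (mean ± SD, n = 4). Each differed from the next by less than the larger SD of the pair. With simvastatin Timp1 remained first, followed by Adam10 at 146 ± 28.5 TPM, Timp3 at 134 ± 29.5, Adam9 at 94.1 ± 24.8 and Mmp2 at 58.4 ± 15.5. The 14 MMP genes summed to 318, 252, 324 and 256 TPM in control replicates 1 to 4 and to 167, 184, 175 and 187 TPM in simvastatin replicates 1 to 4. Every control sum was above every simvastatin sum. Mmp2 alone made up 50.4% ± 1.83 of the MMP sum in controls and 32.5% ± 7.23 with simvastatin. The 4 TIMP genes summed to 281 to 487 TPM in controls and 344 to 406 TPM with simvastatin, ranges that overlap.

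**Figure D3:**
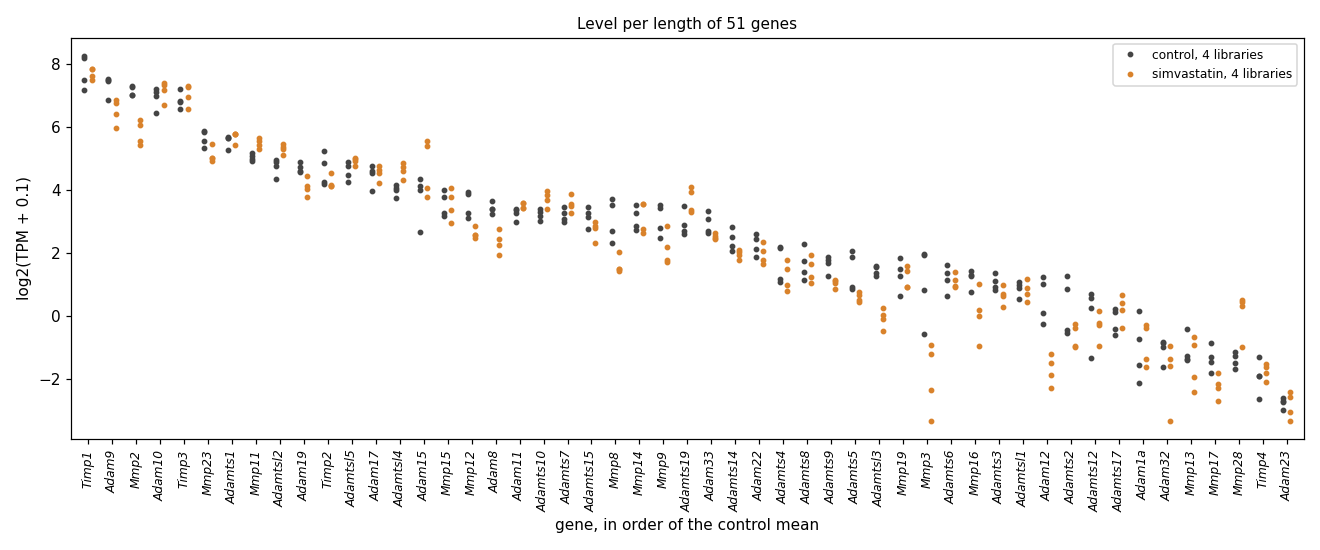
Level of the 51 genes in each library as log2(TPM + 0.1), in order of the control mean, with controls in black and simvastatin in orange. Timp1, Adam9, Mmp2, Adam10 and Timp3 lead, and for Mmp2, Mmp3, Adam12 and Adamtsl3 every simvastatin point lies below every control point.

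Of the gelatinases, which cut denatured collagen and basement membrane collagen, Mmp2 fell. Mmp2, gelatinase A (chromosome 8, 92827291 to 92853420), stood at 202, 172, 210.3 and 165 CPM in control replicates 1 to 4 and at 55.04, 93.2, 59.6 and 85.9 CPM in simvastatin replicates 1 to 4. All simvastatin libraries were below all controls, and those of set 1 were the lowest. It fell 2.55-fold (log2 fold change -1.35 ± 0.18, SE, adjusted p = 0.000496), with -1.87 in set 1 and -0.91 in set 2. Mmp9, gelatinase B, had 15.3, 9.499, 15.5 and 7.31 CPM in the controls and 4.47, 4.18, 5.97 and 9.65 CPM with simvastatin. The groups overlapped in simvastatin replicate 4, and the log2 fold change of -0.97 did not pass (adjusted p = 0.0602). It passed without control replicate 4 (adjusted p = 0.0331) or simvastatin replicate 4 (adjusted p = 0.0157).

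A cluster of 9 Mmp genes lies on chromosome 9 between 7272514 and 7699585 in the coordinates of the files (build GRCm38, as are all gene positions here), in the order Mmp13, Mmp12, Mmp1b, Mmp3, Mmp10, Mmp8, Mmp27, Mmp20 and Mmp7. Of these, 4 reached the count minimum, and 3 of the 4 fell, against 9.61% of all genes tested. Mmp3 and Mmp13 reached the minimum through the controls, so the choice of genes favoured those that were higher there. Mmp3, stromelysin 1 (chromosome 9, 7445822 to 7455975), which cuts proteoglycans and activates other MMPs, had 2.59, 1.18, 2.75 and 0.388 CPM in the controls and 0, 0.288, 0.226 and 0.0658 CPM with simvastatin. It was low throughout, with no simvastatin library above a control, and had the lowest fold change of the 51 genes, -3.52 ± 0.77 on the log2 scale (adjusted p = 0.01). Mmp8, neutrophil collagenase (chromosome 9, 7558456 to 7568485), had 10.45, 6.07, 12.8 and 4.43 CPM in the controls and 2.52, 2.33, 3.61 and 2.502 CPM with simvastatin. Control replicates 1 and 3 were the highest, no simvastatin library reached a control, and the log2 fold change was -1.62 ± 0.32 (adjusted p = 0.00628). Mmp12, macrophage elastase (chromosome 9, 7344381 to 7369499), had 41.6, 24.3, 42.4 and 26.2 CPM in the controls and 15.2, 15.8, 19.5 and 16.03 CPM with simvastatin. The groups did not overlap either, and it fell 2.02-fold (log2 fold change -1.02 ± 0.20, adjusted p = 0.00539). Mmp13, collagenase 3, stood between 0.296 and 0.647 CPM in controls and between 0.0864 and 0.536 CPM with simvastatin, with a 95% interval of its log2 fold change from -1.59 to 0.84.

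The sequences just upstream of these 4 clustered genes are shown because they hold, or lack, a match to the AP-1 site, the binding site of Fos and Jun proteins that is known from many MMP promoters. The windows are the 150 bases before a RefSeq start (build GRCm38.p6, all on the plus strand, 5′ to 3′), and capitals mark matches to the AP-1 letters TGANTCA.
Mmp13 (chr9:7272364-7272513): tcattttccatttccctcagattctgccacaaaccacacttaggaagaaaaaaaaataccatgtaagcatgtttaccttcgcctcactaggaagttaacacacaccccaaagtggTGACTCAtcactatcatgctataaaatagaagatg
Mmp12 (chr9:7347224-7347373): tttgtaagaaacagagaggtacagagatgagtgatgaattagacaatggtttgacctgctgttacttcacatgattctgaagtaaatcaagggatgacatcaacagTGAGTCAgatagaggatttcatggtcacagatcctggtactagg
Mmp3 (chr9:7445672-7445821): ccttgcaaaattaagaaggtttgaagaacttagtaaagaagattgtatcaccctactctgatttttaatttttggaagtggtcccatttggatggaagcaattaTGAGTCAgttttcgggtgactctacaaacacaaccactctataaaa
Mmp8 (chr9:7558279-7558428): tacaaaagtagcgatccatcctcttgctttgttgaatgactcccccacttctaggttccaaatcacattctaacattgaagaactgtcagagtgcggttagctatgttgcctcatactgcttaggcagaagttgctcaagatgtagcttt

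The match began 35 bases before the start in Mmp13, 44 in Mmp12 and 46 in Mmp3, and there was none in the Mmp8 window. For Mmp12 the match belongs to a second RefSeq start inside the gene, and the first start's window had none. RefSeq windows of 300 bases (250 before to 50 after a start) were at hand for 32 of the 51 genes, 36 windows in all. On either strand, AP-1 letters were in 4 of these, against 7.81% of all 32851 windows, and the TEAD letters GGAATG in 3, against 14.7%. The serum response element (CArG box) was in 0 of the 36, against 1.63% of all windows. The other AP-1 match was in Adam19, which also fell. Adam19 had other RefSeq starts too, whose windows held none of the letters searched. The window with the match is shown because it held TEAD letters too, here on the other strand as CATTCC (150 bases before a RefSeq start, plus strand).
Adam19 (chr11:46055834-46055983): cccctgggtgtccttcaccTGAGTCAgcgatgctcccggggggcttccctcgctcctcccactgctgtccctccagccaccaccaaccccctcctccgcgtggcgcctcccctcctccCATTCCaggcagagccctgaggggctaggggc

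The windows of Mmp8, Mmp23, Adam8, Adamts9 and Adamtsl3, which fell, and of Mmp11, Mmp28, Adamtsl2 and Adamtsl4, which rose, held none of the 3 motifs. A match describes letters only, and a window without them says nothing of the factor.

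Among the other secreted MMPs the direction differed. Mmp11, stromelysin 3 (chromosome 10, 75923222 to 75932502), which is activated inside the cell by furin, had 30.9, 30.4, 37.3 and 32.6 CPM in the controls and 46.2, 40.7, 48.2 and 37.99 CPM with simvastatin. The lowest simvastatin library was just above the highest control. Mmp11 rose with a log2 fold change of 0.40 ± 0.12 (adjusted p = 0.0382), a call lost when control replicate 1, 2 or 4, or replicate 1, 2 or 3 of the simvastatin group, was left out (adjusted p up to 0.137). Mmp28, epilysin (chromosome 11, 83440768 to 83463071), had 0.313, 0.533, 0.401 and 0.453 CPM in the controls and 1.70, 0.576, 1.90 and 1.84 CPM with simvastatin. Simvastatin replicate 2 stood close to the controls and the other simvastatin libraries well above them. Mmp28 rose 3.52-fold (log2 fold change 1.81 ± 0.40, adjusted p = 0.0102) from a level under 1 CPM. A gene on the other strand overlaps 12.03% of its exon length and had a mean of 17.38 counts, against 30.75 for Mmp28. Without the strand setting of the counting, reads of these overlapping genes cannot be told apart. Mmp19 stood between 1.92 and 4.50 CPM in controls and between 2.27 and 3.71 CPM with simvastatin, and its exons overlap Tmem198b.

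Mmp23 fell, and the membrane-type MMPs did not pass. Mmp23, an MMP without the usual haemopexin domain (chromosome 4, 155650655 to 155653384), had 50.6, 42.9, 55.8 and 35.8 CPM in the controls and 28.4, 28.05, 26.3 and 38.9 CPM with simvastatin. Simvastatin replicate 4 lay above the lowest control, so the groups overlapped. The log2 fold change of -0.61 ± 0.17 passed (adjusted p = 0.0308), but was lost when replicate 1, 2 or 3 of either group was left out (adjusted p up to 0.0903). Of the 4 tested membrane-type MMPs, 0 passed in edgeR, while 2 had an unadjusted p under 0.05 and DESeq2 called those 2, Mmp16 and Mmp17. Over all genes tested, 4764 of 16126 had an unadjusted p under 0.05 in edgeR, the background for such counts. The share that DESeq2 called over all genes is not given here. Mmp14, MT1-MMP, which activates the MMP2 proenzyme together with TIMP2, had 15.5, 11.04, 20.003 and 11.7 CPM in the controls and 18.997, 9.70, 18.7 and 10.995 CPM with simvastatin. The ranges overlapped, with the set 1 libraries the highest in both groups, and a log2 fold change of 0.00 and a 95% interval from -0.58 to 0.59. Mmp15 had a log2 fold change of -0.04 (interval -0.62 to 0.53). Mmp16 had 7.69, 5.36, 8.10 and 8.54 CPM in the controls and 1.35, 6.19, 2.94 and 3.39 CPM with simvastatin. Simvastatin replicate 2 was within the control range, and without it the log2 fold change of -1.09 became -1.54 and passed (adjusted p 0.0691 and 0.01), as it also did with set as a term (adjusted p = 0.0466). Mmp17, anchored by a lipid, was at 0.473 to 1.20 CPM in controls and 0.132 to 0.461 CPM with simvastatin (log2 fold change -1.39, adjusted p = 0.0512). It passed without control replicate 2 (adjusted p = 0.045) or simvastatin replicate 2 (adjusted p = 0.0422).

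**Figure D4:**
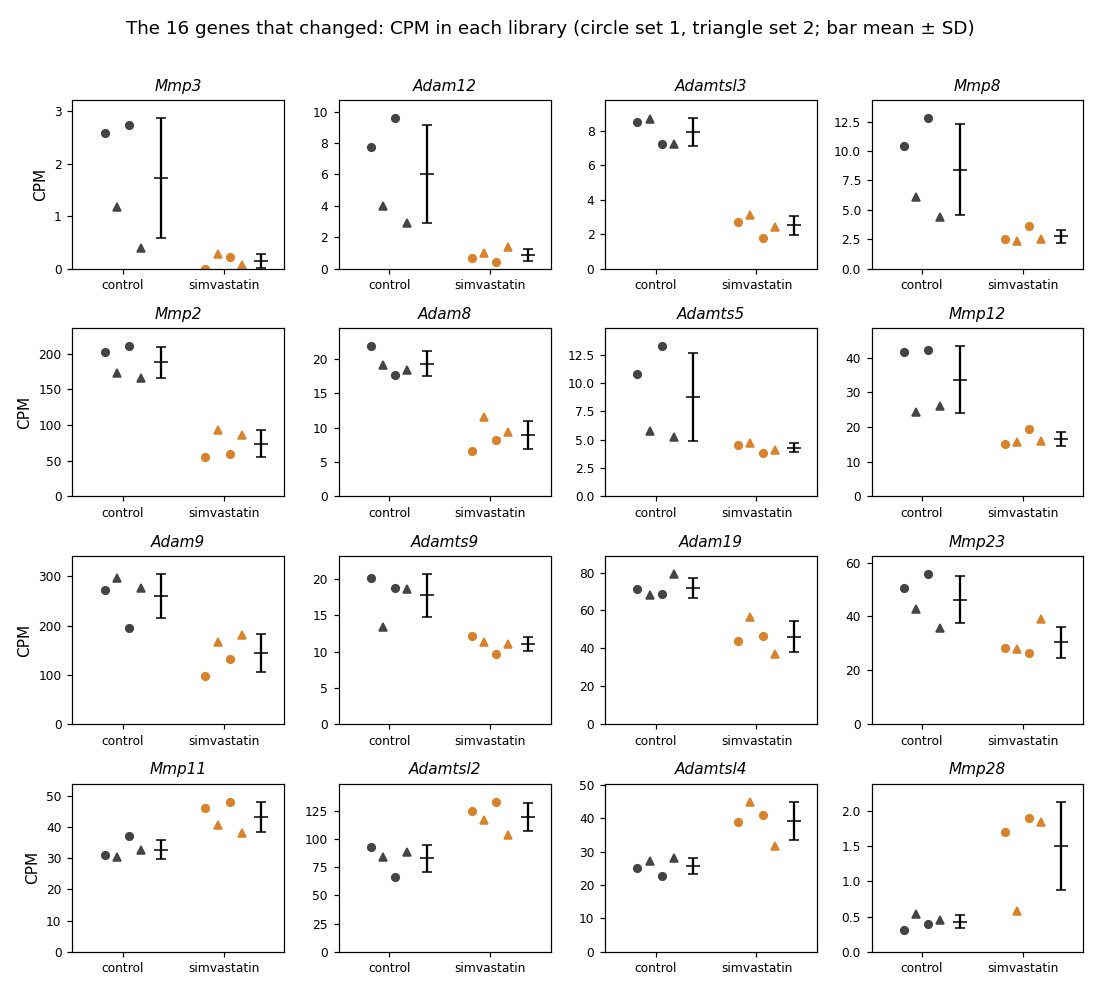
CPM in each library of the 16 genes that passed the test, in order of log2 fold change, with controls in black, simvastatin in orange, circles for set 1, triangles for set 2, and the mean ± SD of 4 libraries beside them. Each axis starts at 0, and of the 12 genes that fell only Mmp23 has a simvastatin library above its lowest control, while every simvastatin library of the 4 that rose is above every control.

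Of the 8 tested ADAMs with an active protease domain, 4 fell and 0 rose, against 9.61% and 7.79% of all genes tested. Adam12, meltrin alpha (chromosome 7, 133883199 to 134232146), which cuts binding proteins of insulin-like growth factors, had 7.72, 3.97, 9.56 and 2.91 CPM in the controls and 0.693, 1.01, 0.419 and 1.35 CPM with simvastatin. Control replicates 1 and 3 were the highest, and every simvastatin library was below the lowest control. It fell 6.94-fold (log2 fold change -2.80 ± 0.45, adjusted p = 0.00177), with -3.96 in set 1 and -1.55 in set 2. Adam9 (chromosome 8, 24949611 to 25016927), the most abundant ADAM per length in controls, had 271, 297, 195 and 277 CPM in the controls and 97.7, 167, 131 and 182 CPM with simvastatin. The highest simvastatin library came close to control replicate 3 without reaching it, and the log2 fold change was -0.85 ± 0.19 (adjusted p = 0.0125).

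Adam8 (chromosome 7, 139978932 to 139992562), best known from leukocytes, had 21.8, 19.1, 17.7 and 18.4 CPM in the controls and 6.62, 11.5, 8.13 and 9.38 CPM with simvastatin. It fell 2.16-fold (log2 fold change -1.11 ± 0.18, adjusted p = 0.00157), with no overlap of the groups. Adam19, meltrin beta (chromosome 11, 46055992 to 46147343), known for its part in the endocardial cushions and in releasing neuregulin, had 71.6, 68.3, 68.7 and 79.3 CPM in the controls and 43.8, 56.8, 46.4 and 37.04 CPM with simvastatin. It fell 1.56-fold (log2 fold change -0.64 ± 0.13, adjusted p = 0.00692), by the same amount in both sets (-0.65 each).

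The main sheddases did not pass. Adam10, which cuts Notch receptors, had 237, 268, 174 and 272 CPM in the controls and 195, 304, 268 and 300.3 CPM with simvastatin, with a 95% interval of its log2 fold change from -0.21 to 0.55. Adam17, which releases TNF and EGF family ligands, had 63.02, 67.6, 45.4 and 72.4 CPM in the controls and 50.4, 66.1, 61.8 and 73.5 CPM with simvastatin. Control replicate 3 was the lowest control for both genes, the groups overlapped, and the interval of Adam17 ran from -0.33 to 0.38. Adam33 was lower in every simvastatin library than in every control (10.6 to 12.3 against 13.1 to 20.4 CPM), with a log2 fold change of -0.49 that did not pass (adjusted p = 0.0588). It passed without control replicate 2 (adjusted p = 0.0351) and in DESeq2 (adjusted p = 0.0309).

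Adam15 varied widely between libraries, with 14.5, 38.3, 50.05 and 39.9 CPM in the controls and 98.6, 37.8, 108 and 31.4 CPM with simvastatin. Control replicate 1 was the lowest, and the simvastatin libraries of set 1 stood at over 2-fold the level of those of set 2. The log2 fold change was 0.95 (adjusted p = 0.189), with 1.65 in set 1 and -0.18 in set 2, and 20.6% of its exon length overlaps an antisense gene. Of the ADAMs that lack a working protease motif and act as adhesion receptors, Adam11, Adam22 and Adam23 had log2 fold changes of 0.21, -0.36 and -0.15, and 0 of the 3 passed. In the same 3, 0 had an unadjusted p under 0.05 and 0 passed in DESeq2, while Adam22 passed with set as a term (adjusted p = 0.0409). Adam1a and Adam32, known from male germ cells, stayed at or below 1.33 CPM in every library and did not pass.

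Of 6 tested ADAMTSs that cut versican and aggrecan, Adamts5 and Adamts9 fell and 0 rose, against 9.61% and 7.79% of all genes tested. Adamts5 (chromosome 16, 85858170 to 85901125), known for valve remodelling, had 10.8, 5.74, 13.2 and 5.24 CPM in the controls and 4.57, 4.75, 3.84 and 4.08 CPM with simvastatin. The set 1 controls were about 2-fold above those of set 2, and the simvastatin libraries lay close together below both. The log2 fold change was -1.02 ± 0.29 (adjusted p = 0.0348), with -1.53 in set 1 and -0.31 in set 2. Leaving out control replicate 1 or 3, or any 1 of the simvastatin libraries, ended that call (adjusted p up to 0.0919). Adamts9 (chromosome 6, 92772699 to 92943492) had 20.2, 13.5, 18.9 and 18.6 CPM in the controls and 12.1, 11.4, 9.68 and 11.1 CPM with simvastatin. It fell 1.61-fold (log2 fold change -0.68 ± 0.15, adjusted p = 0.0113) and passed without any of the libraries in turn.

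Adamts1, the most abundant ADAMTS and the neighbour of Adamts5 on chromosome 16, had 99.98, 106, 83.5 and 101 CPM in the controls and 87.5, 107, 109 and 109 CPM with simvastatin. The groups overlapped, and the 95% interval of its log2 fold change ran from -0.16 to 0.32. The adjacent genes Adamts15 and Adamts8 on chromosome 9 had log2 fold changes of -0.46 and -0.26, and Adamts4 had -0.49. None of these passed (adjusted p 0.0955, 0.639 and 0.381), though Adamts15 did without control replicate 3 (adjusted p = 0.0467).

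The 3 procollagen N-propeptidases, which trim fibrillar procollagens, all had values below 0 and none passed. Unadjusted, 3 of 3 had p under 0.05 in edgeR, against 4764 of all 16126 genes tested, and DESeq2 called 1. Adamts2 had 6.04, 2.13, 8.79 and 2.20 CPM in the controls and 2.39, 1.41, 1.45 and 2.60 CPM with simvastatin. Its set 1 controls were far above the set 2 controls, and its change on the log2 scale was -1.96 within set 1 against -0.12 within set 2 (-1.29 pooled, adjusted p = 0.0842). It passed without control replicate 2 (adjusted p = 0.0411) or 4 (adjusted p = 0.0447). Adamts14 had -0.52 and Adamts3 -0.46 (adjusted p 0.0932 and 0.163).

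Of the other 6 ADAMTSs 0 passed, while 2 had an unadjusted p under 0.05 and DESeq2 called those 2. Over all genes tested, 4764 of 16126 had an unadjusted p under 0.05 in edgeR. Adamts10, which associates with fibrillin microfibrils, had 21.4, 17.1, 21.7 and 18.2 CPM in the controls and 26.5, 28.7, 31.6 and 21.5 CPM with simvastatin. Simvastatin replicate 4 was just inside the control range, and the log2 fold change of 0.47 ± 0.14 lay at the threshold (adjusted p = 0.0503). It passed without control replicate 3 (adjusted p = 0.0483) or simvastatin replicate 4 (adjusted p = 0.0247), with set as a term (adjusted p = 0.0239), and with library totals alone (adjusted p = 0.0498) or DESeq2's size factors (adjusted p = 0.0474). Adamts19, known for valve development (chromosome 18), had 10.7, 13.5, 11.99 and 19.7 CPM in the controls and 27.2, 17.8, 29.9 and 17.3 CPM with simvastatin. The set 1 simvastatin libraries were the highest, with a log2 fold change of 1.32 in set 1 and 0.08 in set 2 (0.72 pooled, adjusted p = 0.0635), and it passed without control replicate 4 (adjusted p = 0.0227) or simvastatin replicate 4 (adjusted p = 0.045). Adamts6, Adamts7, Adamts12 and Adamts17 had log2 fold changes of -0.16, 0.31, -0.59 and 0.41 with adjusted p from 0.188 to 0.698.

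The ADAMTS-like genes moved in both directions. Adamtsl3 (chromosome 7, 82335694 to 82614450), a secreted matrix protein, had 8.49, 8.70, 7.21 and 7.22 CPM in the controls and 2.68, 3.14, 1.81 and 2.44 CPM with simvastatin. The replicates were close within each group, and it had the smallest adjusted p of the 51 genes (fell 3.14-fold, log2 fold change -1.65 ± 0.20, adjusted p = 0.000301). Adamtsl2 (chromosome 2, 27079379 to 27108981), which binds fibrillins and a latent TGF-beta binding protein, had 92.7, 83.9, 66.05 and 88.2 CPM in the controls and 125, 117, 133 and 103 CPM with simvastatin. All simvastatin libraries were above all controls, and it rose 1.44-fold (log2 fold change 0.53 ± 0.12, adjusted p = 0.0145), a call that ended without simvastatin replicate 3 (adjusted p = 0.0517). Adamtsl4 (chromosome 3, 95676201 to 95687917), known for fibrillin fibres of the lens, had 25.3, 27.2, 22.7 and 28.2 CPM in the controls and 38.9, 45.1, 41.2 and 31.8 CPM with simvastatin. It rose 1.52-fold (log2 fold change 0.60 ± 0.13, adjusted p = 0.00923), again without overlap. Adamtsl1 and Adamtsl5 had log2 fold changes of -0.11 and 0.27 and did not pass (adjusted p 0.766 and 0.238).

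None of the 4 TIMPs passed in edgeR, where 0 had an unadjusted p under 0.05, and 0 passed in DESeq2. Timp1 had 103, 63.4, 106 and 48.9 CPM in the controls and 77.6, 59.2, 66.2 and 77.1 CPM with simvastatin. Its set 1 controls were the highest libraries and control replicate 4 was the lowest, and its change on the log2 scale was -0.55 within set 1 against 0.28 within set 2 (pooled interval -0.70 to 0.31). Timp2, the partner of MMP14 in MMP2 activation, had 42.3, 27.8, 59.7 and 28.1 CPM in the controls and 34.6, 24.99, 25.2 and 26.01 CPM with simvastatin. Control replicates 1 and 3 were again the highest, and the interval of the log2 fold change ran from -1.04 to 0.02. Timp3, which binds to the matrix and also inhibits ADAM17, had 457, 351, 312 and 348 CPM in the controls and 296, 474, 381 and 482 CPM with simvastatin. Its interval ran from -0.22 to 0.52, and in set 2 alone it rose with a log2 fold change of 0.45 (adjusted p = 0.00506), against -0.20 in set 1. Timp4 stayed at or below 0.680 CPM in every library. Timp1, Timp3 and Timp4 lie within the spans of Syn1, Syn3 and Syn2 on the opposite strand, and 21.3% of the Timp3 exon length overlaps Syn3 exons. Without the strand setting of the counting, reads from such pairs cannot be told apart, but Syn3 had a mean of 22.5 counts against 12730 for Timp3.

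The change was smaller in set 2 than in set 1 for 12 of the 12 genes that fell, and the same was true of 83.6% of all genes that fell. For Adam19 the sets hardly differed (-0.653 in set 1 and -0.652 in set 2). The change was also smaller in set 2 for 4 of the 4 genes that rose, but the share over all genes that rose was not computed. Of the 16 called genes, 8 passed in each set alone (Mmp2, Mmp8, Mmp12, Adam8, Adam9, Adam12, Adam19 and Adamtsl3). In set 1 but not in set 2 passed Mmp3, Mmp23, Mmp28, Adamts5 and Adamtsl4, in set 2 but not in set 1 Adamtsl2, and in neither Mmp11 and Adamts9. Log2 fold changes in sets 1 and 2 were -4.55 and -2.10 for Mmp3, -1.94 and -1.12 for Mmp8, -1.30 and -0.67 for Mmp12, and -0.98 and -0.24 for Mmp23. They were -1.44 and -0.85 for Adam8, -1.04 and -0.72 for Adam9, -0.86 and -0.51 for Adamts9, and -1.82 and -1.51 for Adamtsl3. Of the genes that rose, Mmp11 had 0.45 and 0.32, Mmp28 had 2.30 and 1.27, Adamtsl2 had 0.68 and 0.35, and Adamtsl4 had 0.72 and 0.47. The direction was thus shared by both sets in each of the 16. The test of the difference between sets (set by treatment term in edgeR) passed for 0 of the 51 and for 0.0558% of all genes. Unadjusted, 14 of the 51 had p under 0.05, against 11.5% of all genes, and the smallest adjusted p was 0.0648 for Mmp2, followed by 0.0793 for Adam12 and 0.0987 for Adamts19. The controls themselves differed by set. Both set 1 controls were above both set 2 controls for 19 of the 51 genes and below them for 15, against 24.4% and 23.3% of all genes. Of the 12 genes that fell, 8 had the higher pair of controls in set 1.

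**Figure D5:**
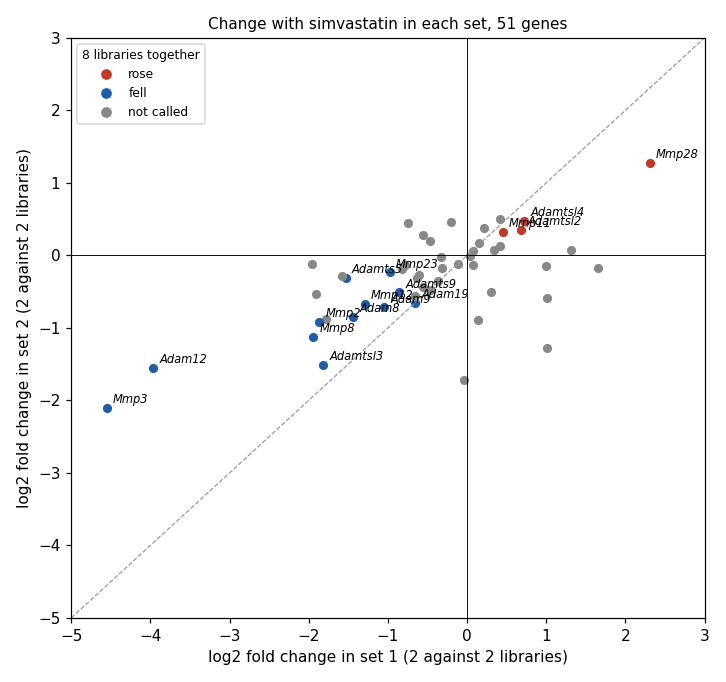
Log2 fold change of each of the 51 genes in set 1 (horizontal) and in set 2 (vertical), each from 2 against 2 libraries, with genes that passed in all 8 libraries coloured and named and a dashed line of equal change. Genes that fell lie on or above the line and to the left, as for Adam12 at -3.96 in set 1 and -1.55 in set 2, and those that rose lie below it.

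Several of these genes are also known from cells other than cardiomyocytes, and markers of such cells moved as well. Mmp8, Mmp12 and Adam8 are known from myeloid cells. Of 7 macrophage markers, 6 of them tested, 3 fell (Cd68, C1qb and Adgre1, log2 fold changes -0.65, -1.30 and -0.70) and 0 rose. Over all genes tested 9.61% fell and 7.79% rose, the background for this and the other marker lists. The list summed to 64.4 to 74.8 CPM in controls and 45.1 to 56.4 CPM with simvastatin, 0 of the 7 were at 0 in every library, and C1qa stayed under 1 CPM. Of the tested macrophage markers that did not pass, Csf1r had a log2 fold change of -0.07. Ptprc had 0.15 and Fcgr1 had -1.07. Mmp2, Adam12 and Adamts5 are known from fibroblasts and other mesenchyme. Of 8 fibroblast markers 3 fell (Pdgfra, Tcf21 and Col3a1, with -1.29, -1.39 and -0.89) and 0 rose, with sums of 1145 to 2541 CPM in controls and 1236 to 1440 CPM with simvastatin. The 3 had -2.21, -2.62 and -1.61 in set 1 and -0.20, -0.17 and -0.07 in set 2, and they passed in 4, 4 and 3 of the 8 fits without a library. Other fibroblast markers were higher in set 2 alone and passed there, Dcn with 0.91 (edgeR adjusted p = 0.00153), Lum with 0.71 (0.0103) and Col1a2 with 0.50 (0.0112), while Col1a2 had -0.90 in set 1. Dcn, decorin, was above every control in all simvastatin libraries of both sets without passing over the 8 libraries (log2 fold change 0.53). Of the 3 protease genes, Mmp2 and Adam12 passed in both sets and in 8 of the 8 such fits, and Adamts5 passed in set 1 but not in set 2 and in 2 of the 8.

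Of 7 smooth muscle and pericyte markers 5 fell and 1 rose (sums of 2688 to 3750 and 730 to 972 CPM), of 6 epicardial markers 2 fell and 1 rose (166 to 268 and 205 to 280 CPM), and of 8 endothelial markers 2 fell and 2 rose (220 to 305 and 226 to 283 CPM). Of 6 erythroid markers, 5 of them tested, 3 rose (7.07 to 10.9 and 14.4 to 32.5 CPM). No marker of these lists was at 0 in every library. Of 6 cardiomyocyte markers 0 passed over the 8 libraries, 0 had an unadjusted p under 0.05 and 0 passed in DESeq2. Nkx2-5 moved in opposite directions by set, with a log2 fold change of 1.64 in set 1 and -1.73 in set 2. It passed in set 2 alone (edgeR adjusted p = 0.000918), and the other cardiomyocyte markers passed in neither set alone. The part of other cells in the changes of the protease genes was not tested.

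Genes that act with these proteases were counted in 7 lists, 67 genes of which 56 were tested, and 9 rose and 15 fell. Over all genes tested 7.79% rose and 9.61% fell (17.4% in either direction), the background for each list below. Of the plasminogen system and the proprotein convertases, which activate pro-MMPs and pro-ADAMs, 3 of 9 tested fell and 0 rose. Plau, urokinase, fell from 1.64 ± 0.757 to 0.295 ± 0.226 CPM (mean ± SD, n = 4, log2 fold change -2.46, edgeR adjusted p = 0.0141). Pcsk5, a convertase, had a log2 fold change of -1.54 and passed in 3 of the 8 fits without a library.

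Among inhibitors and inducers outside the TIMPs, 4 of 10 fell and 2 rose. Spock2, a testican, rose from 2.98 ± 1.11 to 11.4 ± 2.11 CPM. Pcolce, which enhances procollagen C-propeptide cleavage, fell by 0.75 on the log2 scale, and Bsg, the MMP inducer also called EMMPRIN, fell by 0.73. Of the cofactors of ADAM10 and ADAM17, 2 of 8 tested rose and 0 fell. These were Rhbdf2, an iRhom that carries ADAM17 to the surface (0.72), and Tspan17, a tetraspanin of ADAM10 (0.90). The Tspan17 call was lost, leaving 1 rise, when control replicate 1 or 4, or replicate 1 or 3 of the simvastatin group, was left out.

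Of ligands and receptors that ADAMs release, 3 of 10 tested rose and 3 fell. Nrg1, the neuregulin that signals to ErbB receptors in the heart, fell by 1.92 on the log2 scale, and Hbegf, another ErbB ligand, by 0.65. Dll1, a Notch ligand, rose by 3.73 on the log2 scale, to 4.81 ± 2.63 CPM. Without simvastatin replicate 3 this list had 1 rise. Of matrix substrates of ADAMTSs, 2 of 9 tested fell and 1 rose, with 2 rises without control replicate 1 or 4. Acan, aggrecan, fell with -2.62, Thbs1, thrombospondin 1, with -2.29, and Hapln1, the link protein that holds versican to hyaluronan, rose with 1.83.

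Of astacin proteases and ADAMTS relatives, 1 of 4 tested rose (Papln, papilin, log2 fold change 2.82) and 1 fell (Tll1, tolloid-like 1, -1.46). Of the AP-1 factors, 2 of 6 tested fell and 0 rose. Junb fell from 58.0 ± 15.5 to 32.5 ± 3.73 CPM and Fosl2 from 15.1 ± 4.56 to 8.07 ± 0.319 CPM. Their part in the changes of the protease genes was not tested.

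The other 32 of the 83 genes did not reach 10 counts in 4 libraries and were not compared. They were 20 Adam, 8 Mmp and 4 Adamts genes. Just outside the minimum, with 10 counts in 3 libraries, were Mmp10 (0 to 22 counts a library), Mmp27 (1 to 19) and Adam4 (3 to 14). Just inside, with 10 counts in 5 libraries, were Mmp3, Adam23 and Adam32. Of the 51 genes 44 had 10 counts in all 8 libraries, and Mmp3 (4 control and 1 simvastatin libraries), Mmp13 and Mmp17 (4 and 2 each) reached the minimum through the controls. Of these Mmp3 is among the 12 that fell. Mmp7, matrilysin, Adam18, Adam39, Adam26b, Adam6a and Adam6b had 0 counts in all libraries.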

How the data were processed

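RNA sequencing was examined for 4 control and 4 simvastatin libraries (30474586 to 35215640 counts each). The authors deposited raw counts per Ensembl gene. Per the submitters' processing notes, Trimmomatic 0.36, STAR 2.5.2b and featureCounts (Subread 1.5.2) were used with builds GRCm38 and mm10. The sources used here give no strand setting, annotation release, library kit or time in simvastatin. Symbols and biotypes came from GENCODE vM21 (99.5% of gene ids matched), and promoter sequences from RefSeq.

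Genes were filtered with filterByExpr (16126 kept), scaled by TMM and tested with edgeR 4.0.16 (R 4.3.3) by the quasi-likelihood test, with Benjamini-Hochberg adjustment over all genes tested and a threshold of 0.05. The filter and test were tested on simulated data of the same 16126 genes, where 27.0% of 1.5-fold, 62.3% of 2-fold and 97.1% of 4-fold changes were recovered and 8.03% of calls were false. The simulation gave 137 calls, against 2805 in the data, and held no sets, so these shares may differ in the data. Any pair of replicates of a group differed beyond sampling noise. TPM used the exon length in the files. Alternatives were other scaling, DESeq2 1.42.0, limma-voom (limma 3.58.1), other filters, a replicate block, a set term, each set alone and each library left out.

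The members and lists were chosen with earlier results of these data known. Values by library are given for called genes with a mean of at least 1 CPM and for Mmp2, Mmp14, Adam10, Adam17, Adamts1 and the TIMPs. Of each related list at most the 3 called genes with the smallest p are named. The values of 1 gene of these lists are not reported here. Mmp9, Mmp16, Mmp28, Adam15, Adamts2, Adamts10 and Adamts19 were given by library after their values were seen.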

Additional observations from a re-analysis of the deposited data

Results flagged for a closer look

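In 7 of the 102 gene-and-group sets of 4 libraries, 1 library stood apart from the other 3 by Dixon's ratio of its gap to the whole range, beyond the 95% critical value. Chance flags about 1 in 20 such sets. The ratio was 0.946 for Mmp13 in controls, where replicate 4 had 0.647 CPM and the others 0.296 to 0.315 CPM. It was 0.833 for Adam32 in controls, where replicate 1 had 0.256 CPM and the others at least 0.486 CPM. With simvastatin, replicate 1 was low for Adamts1 (87.5 against 107 to 109 CPM, ratio 0.899) and high for Timp2 (34.6 against 25.0 to 26.0 CPM, ratio 0.894). Simvastatin replicate 3 was high for Mmp8 (3.61 against 2.33 to 2.52 CPM, ratio 0.853), and replicate 4 was high for Mmp23 (38.9 against 26.3 to 28.4 CPM, ratio 0.836). Simvastatin replicate 2 was low for Mmp28 (0.576 against 1.70 to 1.90 CPM, ratio 0.848), next to the controls.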

How the results depend on the processing

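Over the 18 other settings the count of the 51 genes that fell ranged from 8 (set 2 alone) to 17 (DESeq2), against 12, and the count that rose from 2 to 6, against 4. DESeq2 also called Adam33, Adamts2, Adamts10, Adamts19, Mmp9, Mmp16 and Mmp17, and without the low-count filter Adam15 passed too (adjusted p = 0.0267). The rises numbered 2 in set 2 alone, and 2 to 6 with 1 library left out. Of the 16 called genes 0 changed direction in any of these settings, and 8 passed in all 18 (Adam8, Adam9, Adam12, Adam19, Adamtsl3, Mmp2, Mmp8 and Mmp12). Same-numbered control and simvastatin libraries, which also share a set, correlated at -0.14, 0.05, 0.13 and -0.16 in their deviations from the group means. Differently numbered pairs ran from -0.36 to 0.36. Each value comes from a single pair of libraries, so these correlations cannot decide whether same-numbered libraries were paired. With a replicate block 10 fell and 3 rose (related genes 14 and 7), and falls in the list of plasminogen genes and convertases numbered 1 against 3. With set as a term 14 fell and 5 rose, the added ones being Adam22, Mmp16 and Adamts10. The calls of Adamts5, Mmp23 and Mmp11 were lost under the block.

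Reversals were seen in genes that did not pass, and the cause was not tested. In set 2 alone the log2 fold change was 0.44 for Adam23, -0.00377 for Adam17, -0.18 for Adam15, -0.14 for Adamts17, 0.20 for Mmp19, -0.14 for Mmp14, 0.28 for Timp1 and -0.59 for Timp4. In set 1 alone it was 1.01 for Adam1a, 0.14 for Mmp13, 0.30 for Mmp15 and -0.20 for Timp3. Adam1a had 0.0168 with library totals, 0.21 with limma-voom and 0.15 with the replicate block, and Mmp14 had -0.0297 with limma-voom, -0.0174 with the block and -0.0217 with a set term. With 1 library left out, values ran from -0.69 to 0.25 for Adam23, -0.34 to 0.61 for Adam1a, -0.10 to 0.11 for Adam17, -0.45 to 0.0495 for Adamts8, -0.25 to 0.00252 for Adamtsl1, -0.36 to 0.00923 for Mmp19, -0.25 to 0.12 for Mmp15, -0.15 to 0.20 for Mmp14 and -0.11 to 0.54 for Timp4. Changes of 1.5-fold were recovered in 27.0% of simulated cases, with fewer genes changed there than were called here. A gene that did not pass may thus have changed by that much, unless its 95% interval ends short of it. On the log2 scale the intervals of Adam17 (-0.33 to 0.38) and Adamts1 (-0.16 to 0.32) did so. Those of Adam10 (-0.21 to 0.55), Timp3 (-0.22 to 0.52), Adam11 (-0.054 to 0.471), Adamtsl1 (-0.532 to 0.311) and Adamtsl5 (-0.043 to 0.576) did too. Of the 51 genes 6 were under 1 CPM in both groups.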
